A study of Homo sapiens with 131 samples.

Results

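The aminoacyl-tRNA synthetases are the enzymes that attach each amino acid to its tRNA before translation. The genes described here were chosen by name, as every gene called by a letter followed by ARS1 or ARS2, together with EPRS1 and the scaffold genes AIMP1 and AIMP2. These are 37 of the 60708 genes in the expression table. 18 of them encode cytosolic enzymes (EPRS1 included), 17 encode mitochondrial enzymes, and AIMP1 and AIMP2 encode non-catalytic proteins. The choice used no measured value. It does not take in FARSA and FARSB, the subunit genes of the cytosolic phenylalanine enzyme, whose names differ.

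As background, most eukaryotic cells keep separate nuclear genes for the enzyme that serves the cytosol and the enzyme that is imported into mitochondria. KARS1 and GARS1 are exceptions, since each encodes both forms of its enzyme, and QARS1 has no mitochondrial partner because mitochondria make glutaminyl-tRNA by amidation. The products of 8 cytosolic genes (EPRS1, IARS1, MARS1, QARS1, RARS1 and KARS1 among them) assemble with AIMP1, AIMP2 and EEF1E1 into the multi-synthetase complex. Many cytosolic synthetase genes are known targets of ATF4, the transcription factor of the amino acid response, which binds the C/EBP-ATF response element.

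The cells were HAP1, a near-haploid human line derived from a chronic myeloid leukaemia line, in which replication takes a locus to 2 copies, against 1 before it. Untreated cells in the middle of S-phase were sorted singly, and the DNA and the RNA of each cell were made into separate libraries that share a cell number. Of 63 mid-S cells named in the labels, the tables hold 56, all from 1 biological experiment. The other 7 cells and 5 DNA libraries from G1 were not analysed here. Every p-value therefore measures only the spread between these cells.

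RNA is given as TPM (a level per exon length, scaled to a common total in each cell), and the deposited spliced values were equal to the gene values. The replication score, the percent of 40-kb bins called 2-copy, ran from 39.7% to 67.2%. The number of genes at a TPM of 1 or more was 12045 to 15028 per cell. The libraries fall into a later set (27 cells numbered above 65) and a first set (29 cells up to 65), which were told apart by earlier results on these data and differ in the share of mitochondrial-genome RNA (2.57% to 5.55% in the later set and 4.98% to 18.3% in the first set). The labels name no batch. Values within each set are given where they bear on a result. The cells had the S-phase gene PCNA at a median of 314 TPM. Of the markers of blood and other cells, CD3E was at 0 in all 56 cells, PTPRC, CD34 and ALB had a median of 0, COL1A1 had a median of 0.740 TPM and SPN one of 2.13 TPM. These blood markers were thus near 0 although the line has a leukaemic origin.

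A sequence feature that the choice of genes did not use divided the cytosolic members. RefSeq promoter windows (GRCh38.p14, 250 bases before to 50 after the start) were matched to 30 of the 37 members by symbol, and were searched on both strands for TGATGNAA, the core of the C/EBP-ATF response element (N is any base). It was found in 7 of 14 cytosolic genes and in 1 of 14 mitochondrial genes (7.14%), against 2.63% of 9604 expressed genes. The stretches below are shown because these genes also lead the covariation described further on. Each is written 5′ to 3′ on the strand of its gene with the match in capitals, and the matches read TTNCATCA where the element lies on the other strand. ASNS, the asparagine synthetase gene and a textbook target of ATF4, is added for comparison. Of the 18 genes of the amino acid response list with a window, 4 held the element (22.2%), namely ASNS, CHAC1, SLC3A2 and ATF3.
AARS1, chr16:70289675-70289704, minus strand: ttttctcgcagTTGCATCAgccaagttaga
CARS1, chr11:3057407-3057436, minus strand: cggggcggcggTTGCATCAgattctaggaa
GARS1, chr7:30594834-30594863, plus strand: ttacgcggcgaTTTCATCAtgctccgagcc
IARS1, chr9:92293692-92293721, minus strand: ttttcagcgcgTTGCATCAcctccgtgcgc
MARS1, chr12:57488053-57488082, plus strand: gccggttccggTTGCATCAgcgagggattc
NARS1, chr18:57621804-57621833, minus strand: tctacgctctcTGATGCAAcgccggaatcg
TARS1, chr5:33440956-33440985, plus strand: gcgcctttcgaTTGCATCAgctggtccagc
YARS2, chr12:32756076-32756105, minus strand: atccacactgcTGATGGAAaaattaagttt
ASNS, chr7:97872458-97872487, minus strand: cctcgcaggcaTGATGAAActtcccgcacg

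In 6 of the 7 cytosolic genes the match reads TTGCATCA or its complement TGATGCAA, and in GARS1 it reads TTTCATCA. It began 2 bases before the RefSeq start in CARS1, 4 before it in MARS1, 13 before it in IARS1 and 33 before it in GARS1. In TARS1 and NARS1 it began at transcribed bases 3 and 15, and in AARS1 187 bases before the start. The same window held the E-box CACGTG in 7.14% of the cytosolic and 21.4% of the mitochondrial members, against 12.6% of expressed genes. It held CCAAT in 7 of 14 cytosolic and 9 of 14 mitochondrial members, against 43.4% of expressed genes. Among the members without a matched window were AARS2, LARS1, VARS1, VARS2 and YARS1. The 30 matched genes had 42 windows, and a gene counted if any of its windows held the element. CARS1, GARS1 and TARS1 each had a further window, from another start, without it. Which start these cells use was not examined. A match describes letters in the window and no binding was measured.

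The cytosolic synthetase genes were expressed far above the mitochondrial ones. The median over cells was between 65.5 and 346 TPM for the 18 cytosolic genes, with a median of 177 TPM, and between 0 and 161 TPM for the 17 mitochondrial genes, with a median of 27.96 TPM. The median over all 13542 expressed genes (a value above 0 in over 50% of cells) was 19.3 TPM. Of the cytosolic genes 16 reached a median of 100 TPM, against 1 of the mitochondrial genes. Read as presence in every cell, 16 of the 18 cytosolic genes were above 0 in all 56 cells, against 5 of the 17 mitochondrial genes. All members but PARS2 counted as expressed.

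GARS1, the glycyl-tRNA synthetase gene (chr7:30580533-30634033), was the most abundant member, at 120.1 TPM in the lowest cell, 346 TPM at the median and 756 TPM in the highest. MARS1, the methionyl enzyme gene (chr12:57475445-57517569), followed at 91.8, 318 and 691 TPM. IARS1, the isoleucyl enzyme gene, had 91.3, 279 and 517 TPM in the lowest, median and highest cell. These ranges overlapped almost wholly, so neighbours in the order of levels differed by less than the spread between cells. The lowest cytosolic genes were CARS1 (cysteinyl) at a median of 101.8 TPM, RARS1 (arginyl) at 73.2 TPM and HARS1 (histidyl) at 65.5 TPM. RARS1 and NARS1 (asparaginyl) were the cytosolic genes at 0 in some cells, RARS1 in 2 cells and NARS1 in 1. The 8 genes of the multi-synthetase complex had a median level of 196 TPM and the 10 other cytosolic genes one of 174 TPM, with ranges that overlapped.

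By the median over all 56 cells, the scaffold genes AIMP1 and AIMP2 stood lower than the enzyme genes of the complex. Within the first set AIMP1 (70.2 TPM) was above RARS1 (56.3 TPM), and within the later set it was below RARS1 (58.1 and 81.3 TPM). AIMP1 ran from 2.09 through a median of 61.3 to 169 TPM, and AIMP2 from 0 through 45.1 to 130.2 TPM, while 7 of the 8 enzyme genes of the complex had medians above 100 TPM. EEF1E1, the gene of the other scaffold protein and not a member, had a median of 75.1 TPM. The excluded subunit genes of the phenylalanine enzyme, FARSA and FARSB, had 68.96 and 26.9 TPM.

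Among the mitochondrial genes IARS2 (isoleucyl) was the highest, at 42.9 TPM in the lowest cell, 161 TPM at the median and 333 TPM in the highest cell. CARS2 (cysteinyl) had 10.7, 80.6 and 319 TPM. AARS2 (alanyl), WARS2 (tryptophanyl) and PARS2 (prolyl) were the lowest, at medians of 13.7, 10.02 and 0 TPM. PARS2 was above 0 in 19 of 56 cells and reached 23.3 TPM. WARS2 was above 0 in 39 cells, and FARS2 and MARS2 in 46 cells each. AARS2 was low in every cell rather than absent from some, with values from 1.58 to 37.96 TPM. Zeros in single cells mark genes without a counted read at this depth and not cells without the transcript.

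**Figure D1:**
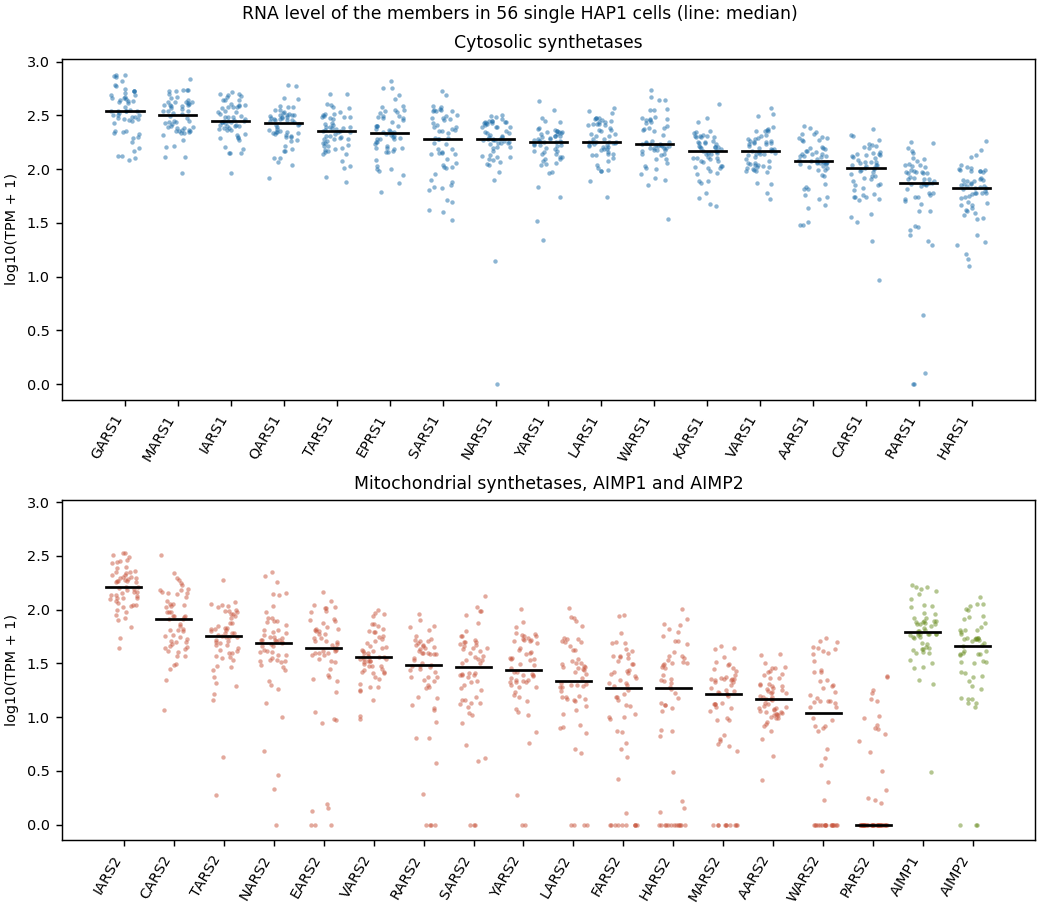
RNA level of 35 members, as log10(TPM + 1), in 56 single cells (points) with the median over cells (line), cytosolic genes above and mitochondrial genes, AIMP1 and AIMP2 below. The cytosolic medians lie between 65.5 and 346 TPM, and the mitochondrial medians lie between 0 and 161 TPM.

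The spread between cells of a member was close to that of other genes of its level. For members with a mean of 100 to 300 TPM the coefficient of variation had a median of 41.1%, against 44.2% in 1129 genes of that level. For those with a mean of 30 to 100 TPM it was 63.6%, against 62.7%. Within the upper band SARS1 (seryl) varied most, at 59.1%, with 32.9 TPM in its lowest cell, 190.5 TPM at the median and 531 TPM in the highest.

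15 amino acids have a cytosolic and a mitochondrial gene among the members, with EPRS1, which carries both glutamyl and prolyl activity, set beside EARS2. The cytosolic gene had the higher median in 15 of the 15 pairs, with ratios from 1.26 to 20.6 and a median ratio of 4.17. The closest pair was CARS1 and CARS2, at 101.8 and 80.6 TPM, in which the cytosolic gene was higher in 38 cells and the mitochondrial gene in 17. IARS1 and IARS2, at 279 and 161 TPM, were also close, with the cytosolic gene higher in 44 of 56 cells. The widest pair was MARS1 and MARS2, at 318 and 15.4 TPM. WARS1 and WARS2 followed, at 170.0 and 10.02 TPM. In these pairs, and in LARS1 with LARS2 and EPRS1 with EARS2, the cytosolic gene was higher in 56 of 56 cells. The pairs thus spanned a range from near equality for cysteine to a wide gap for methionine.

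**Figure D2:**
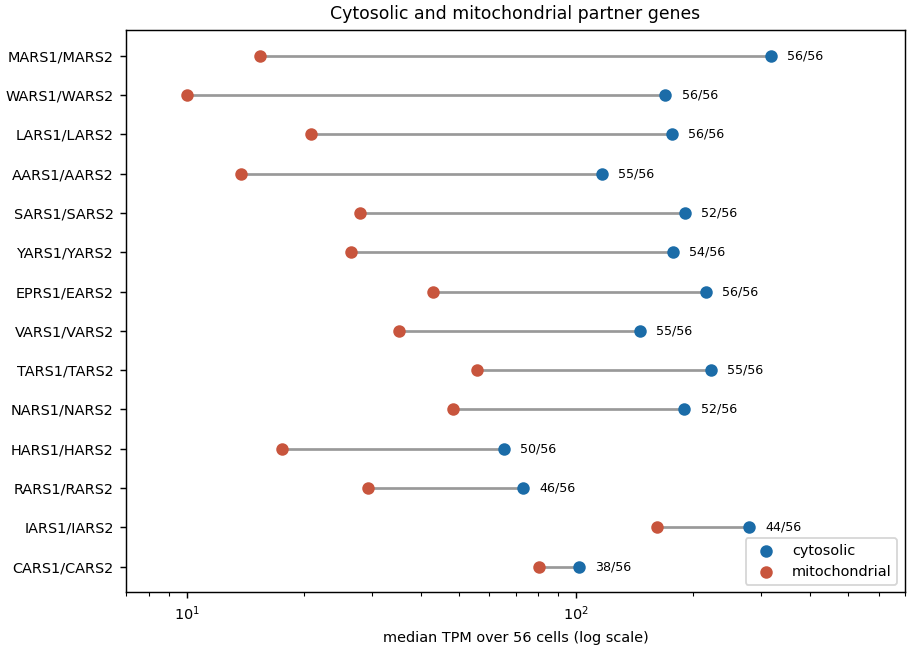
Median TPM over 56 cells of the cytosolic (blue) and the mitochondrial (red) gene of 14 partner pairs, on a log axis, with the number of cells in which the cytosolic gene was higher. The gap is narrowest for CARS1 and CARS2 (1.26 times) and widest for MARS1 and MARS2 (20.6 times).

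Partner genes did not move together from cell to cell. Spearman's rho of TPM over 56 cells was between -0.19 (SARS1 with SARS2) and 0.25 (LARS1 with LARS2) in the 15 pairs. These and all other correlations here are descriptions over cells that share libraries and an experiment, and carry no test.

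Summed over the members, the cytosolic genes gave 1634, 3593 and 5423 TPM in the lowest, median and highest cell, against 389.9, 781 and 1184 TPM for the mitochondrial genes. The ratio of the sums was 2.16 in the lowest cell, 4.72 at the median and 10.7 in the highest, so the cytosolic sum exceeded the mitochondrial one in 56 of 56 cells. The ratio had a median of 5.78 in the later set and 3.92 in the first set, with ranges from 2.49 to 10.7 and from 2.16 to 6.48 that overlapped. Without KARS1 and GARS1, whose genes also supply the mitochondrial enzyme, the log2 ratio had a median of 1.97, against 2.24 with them.

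Across cells, part of the cytosolic synthetase genes varied together, and they did so with the genes of the amino acid response. With the mean of each library set removed from log2(TPM + 1), Spearman's rho over 56 cells had a median of 0.138 over the 153 pairs of cytosolic genes and 0.0288 over the 120 pairs of mitochondrial genes. It was 0.0272 over all pairs of 1408 genes with a mean of 100 to 1000 TPM. Pairs of a cytosolic and a mitochondrial gene had a median of 0.00704. Within the later set the median was 0.130 for cytosolic and 0.0998 for mitochondrial pairs, and within the first set 0.128 for cytosolic and 0.00761 for mitochondrial pairs. All points share the cells, their read depth and the scaling to a common total, and most values of rho are weak.

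The strongest pair was GARS1 with SARS1 (rho 0.61, with 0.60 in the later set and 0.57 in the first set). GARS1 with MARS1 followed (0.58, with 0.78 and 0.35 in the sets), then IARS1 with SARS1 (0.58, with 0.63 and 0.49) and SARS1 with YARS1 (0.57, with 0.77 and 0.41). Each had the same sign in the later and the first set. By their median rho with the other cytosolic genes, GARS1 (0.38), IARS1 (0.34) and YARS1 (0.30) led. HARS1 (0.03), VARS1 (0.02), QARS1 (0.001) and RARS1 (-0.05) were at the end, and KARS1 (0.04) was near them. The 8 genes of the multi-synthetase complex had a median pair rho of 0.128 and the 10 others one of 0.213, so membership of the complex did not mark the genes that varied together. IARS1 and MARS1 of the complex were among the leaders and QARS1, RARS1 and KARS1 of the same complex were not.

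The amino acid response list holds ATF4 and known targets, among them ASNS, the serine synthesis genes PHGDH and PSAT1, and MTHFD2 of mitochondrial folate metabolism. 21 of its 22 genes were expressed. Their median rho with the 18 cytosolic genes was highest for PSAT1 (0.43), MTHFD2 (0.39), ASNS (0.37), PCK2 (0.36) and PHGDH (0.34), and ATF4 itself had 0.20. DDIT3 (-0.04) and ATF3 (-0.02) were lowest. Of the 5 leading genes only ASNS held the element in its window, and the other response genes with it had 0.22 (SLC3A2), 0.07 (CHAC1) and -0.02 (ATF3). Seen from the synthetases, YARS1 (0.44), MARS1 (0.35), GARS1 (0.33) and SARS1 (0.32) had the highest median rho with the 21 response genes, and GARS1 and YARS1 were positive with 20 of the 21. In the later and the first set YARS1 had 0.59 and 0.28, MARS1 0.53 and 0.19, GARS1 0.58 and 0.10, and SARS1 0.45 and 0.24. The order was not the same in the sets, and in the first set GARS1 lay below EPRS1 (0.24) and IARS1 (0.21), among others. KARS1 had -0.13 and was positive with 2 of the 21. Over all 378 pairs of a cytosolic and a response gene the median was 0.155, with 0.229 within the later set and 0.122 within the first set. The 16 expressed mitochondrial genes had a median of -0.04 with the response genes and a range from -0.15 to 0.16, against -0.01 over all expressed genes. For 11 aminoacylation partners the median over the pairs with cytosolic genes was 0.0423, with the tRNA exporter gene XPOT highest at 0.22, and for 8 elongation factor genes it was 0.0630. MARS1 overlaps DDIT3 on the other strand, and its rho with DDIT3, 0.19, was the highest of the 18 cytosolic genes with DDIT3.

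**Figure D3:**
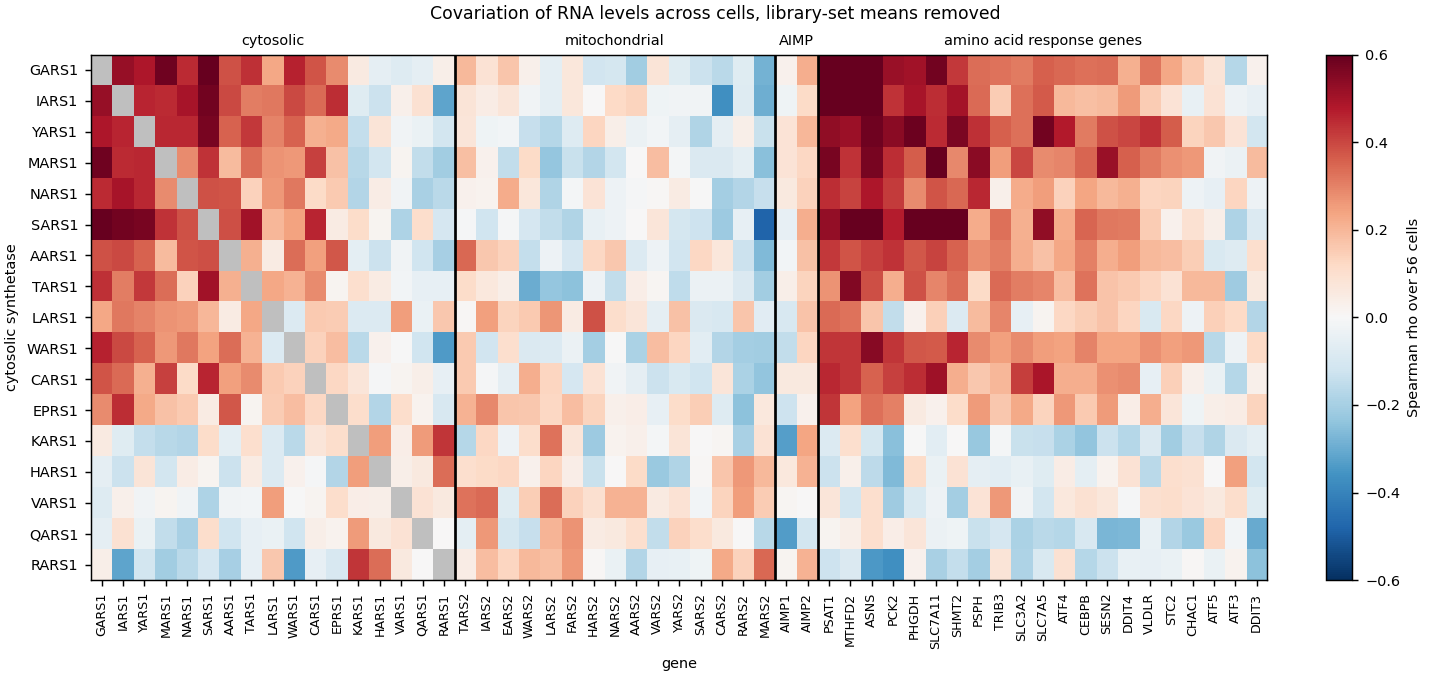
Spearman's rho over 56 cells, with library-set means removed, between 17 cytosolic synthetases (rows) and 34 expressed members and 21 amino acid response genes (columns), red for positive and blue for negative values, grey on the diagonal. GARS1, IARS1, YARS1, MARS1, NARS1 and SARS1 are red with each other and with PSAT1, MTHFD2 and ASNS, while KARS1, HARS1, VARS1, QARS1 and RARS1 are pale or blue with them.

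The genes with the response element in the promoter window were among those that varied together. In the 7 cytosolic genes with the element, shown above, the median rho with the other cytosolic genes ran from 0.16 (CARS1) to 0.38 (GARS1), with a median of 0.26. In the 7 with a window but no element it ran from -0.05 (RARS1) to 0.24 (SARS1), with a median of 0.04. With the response genes the values were 0.22 to 0.35 (median 0.25) in genes with the element and -0.13 to 0.32 (median -0.04) in genes without it. These medians with the response genes were 0.35 and 0.07 within the later set, and 0.19 and 0.04 within the first set. Among themselves, 21 of 21 pairs of genes with the element had a positive rho (0.11 to 0.58, median 0.38), against 15 of 21 pairs of those without it (-0.34 to 0.43, median 0.05). SARS1, WARS1 and EPRS1 were exceptions, since they had no match in the window and yet a median rho of 0.32, 0.27 and 0.16 with the response genes. EPRS1 was positive with 20 of the 21, and within the first set its median of 0.24 was above that of each gene with the element. YARS2, the mitochondrial gene with a match, had -0.02. YARS1, highest of all with the response genes, had no window to search.

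**Figure D4:**
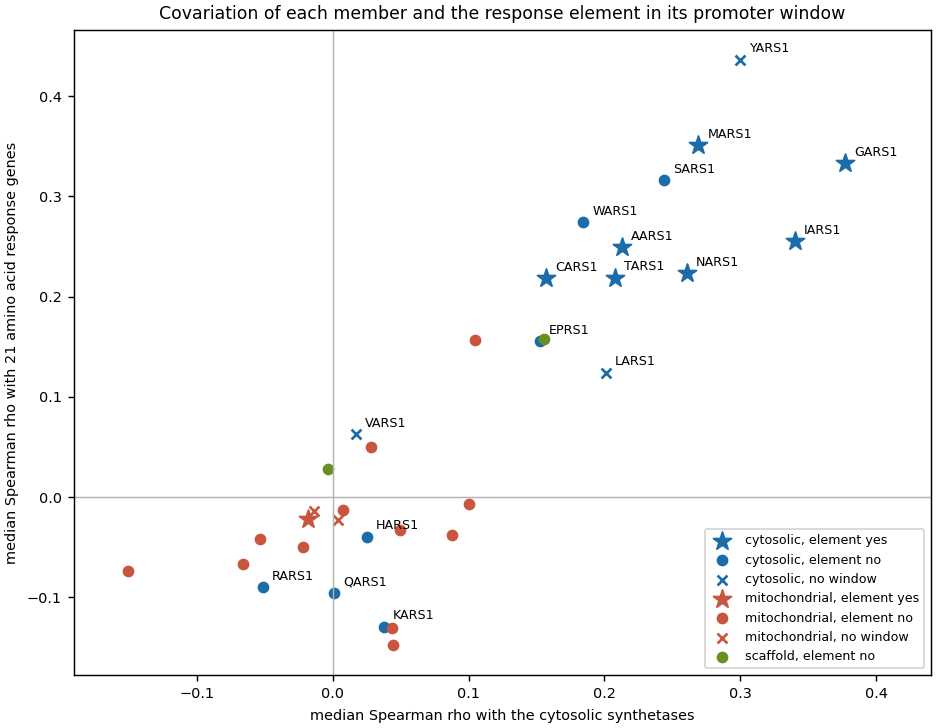
34 expressed members by their median Spearman's rho with the cytosolic synthetases (x) and with 21 amino acid response genes (y), over 56 cells. Stars have the response element in the promoter window, circles do not, and crosses had no window. The 7 cytosolic stars lie at 0.16 or more on x and 0.22 or more on y, and the mitochondrial genes lie near 0.

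Measures of the libraries moved with some of these genes. With the set means removed, the rho of the 18 cytosolic genes with the unspliced total ran from -0.41 to 0.04 (median -0.21). In size this median was larger than the median rho over pairs of cytosolic genes, 0.138. With the number of genes reaching a TPM of 1 it ran from -0.38 to 0.06 (median -0.12). With the share of mitochondrial-genome RNA it ran from -0.33 to 0.17 (median -0.09), and with the replication score from -0.32 to 0.28 (median -0.11). For the 16 mitochondrial genes the medians were -0.09 with the unspliced total, 0.03 with the number of genes, -0.06 with mitochondrial-genome RNA and 0.00079 with the score. Their part in the covariation was not tested.

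Between the library sets, the members differed no more often than other genes. limma called 1 of 36 members (log2(TPM + 1), later minus first set, replication score as a covariate, Benjamini-Hochberg adjusted p under 0.05 over all genes tested), while 8.26% of 13542 genes were called, 4.16% as lower in the later set. The member was MARS1, with 91.8, 250.2 and 496 TPM in the lowest, median and highest cell of the later set and 187, 389 and 691 TPM in the first set. MARS1 fell by 0.51 ± 0.17 on the log2 scale (SE, n = 27 and 29 cells, limma adjusted p = 0.0489), although the ranges of the sets overlapped. The call was lost with a pseudocount of 0.1 (limma adjusted p = 0.0591). No other cytosolic or mitochondrial member passed. SARS1 had medians of 227 TPM in the later set and 141 TPM in the first set (log2 difference 0.66 ± 0.28, limma adjusted p = 0.125), and passed only in a Wilcoxon rank-sum test over all genes (adjusted p = 0.0491), which called 10.8% of them. GARS1 had 433 and 295 TPM (log2 difference 0.41 ± 0.20, limma adjusted p = 0.208), and RARS1 had 81.3 and 56.3 TPM (log2 difference 1.06 ± 0.44, limma adjusted p = 0.122). Among the related genes, 4 of 8 elongation factor genes were called, all higher in the later set (EEF1A1, EEF1B2, EEF1G and EEF2). 1 of 21 amino acid response genes was called (MTHFD2, higher), and 1 of 11 aminoacylation partners (SEPSECS, higher). The sets differ in mitochondrial-genome RNA, as given above, and its part in these differences was examined only by rescaling TPM without those genes, after which MARS1 alone was still called.

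Along S-phase progression no member passed. With log10(TPM + 1) fitted as a smooth function of the replication score over 56 cells, mgcv called 0 of 36 members at an adjusted p under 0.05, and limma with a linear term also called 0, while 0.0517% of 13542 genes were called by mgcv. An unadjusted p under 0.05 was found for 5 of 36 members (13.9%), against 11.2% of all genes. The lowest was that of TARS2, the mitochondrial threonyl enzyme gene (rho with the score -0.48, mgcv adjusted p = 0.146, 56 cells). KARS1, the lysyl enzyme gene, had a rho of 0.34 (mgcv adjusted p = 0.291), SARS2 one of -0.43 (adjusted p = 0.364 by mgcv), EPRS1 one of -0.30 (adjusted p = 0.376 by mgcv) and AARS2 one of -0.10 (adjusted p = 0.407 by mgcv). Of the S-phase marker genes, MCM3 was called. At this number of cells, a course along the score was therefore not detectable for any synthetase gene.

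Copy states were available for 26 members. The 11 others were not analysed for copy state, 8 of them on chromosome 1, which the study left out as abnormal in this line. The replication timing of a gene was taken as the percent of the 55 cells scored 40 to 70% with a call in which it was 2-copy, and the range was divided by the study's 9 parts into early-, mid- and late-S. 22 of the 26 members (84.6%) were early-S, against 71.5% of 10278 expressed genes with a copy state. This held for 13 of 13 cytosolic genes, with 83.3% to 100% of cells in the 2-copy state, and for 8 of 11 mitochondrial genes. AARS1, QARS1, WARS1, MARS1, KARS1 and AARS2 were 2-copy in all cells with a call. At the other end CARS2 (chr13:110641412-110713603) was 2-copy in 48.1% of cells, AIMP1 (chr4:106315544-106349456) in 30.9%, EARS2 (chr16:23520754-23557731) in 25.45% and FARS2 (chr6:5261044-5829192) in 12.7%. The first 3 were mid-S and FARS2 was late-S. The share of 2-copy cells was 55.6% in the later set and 40.7% in the first set for CARS2, 40.7% and 21.4% for AIMP1, 22.2% and 28.6% for EARS2, and 3.70% and 21.4% for FARS2. HARS1 and HARS2, which lie head to head, were in the same copy state in 52 of the 52 cells with a call for both. Their spans overlap, so they share a 40-kb bin. This agreement therefore follows at least in part from how states are assigned to genes.

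**Figure D5:**
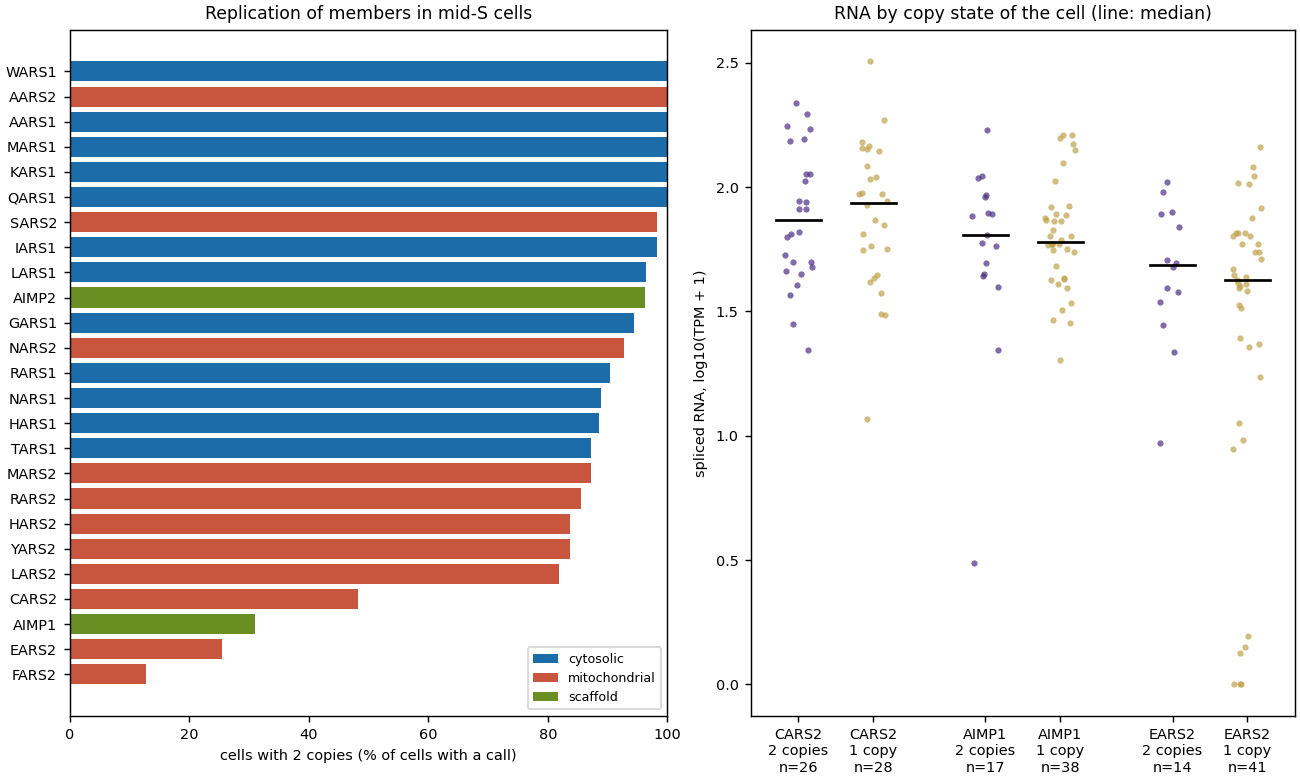
Left, percent of the cells with a call in which each of 25 members was 2-copy, coloured by class. Right, spliced RNA of CARS2, AIMP1 and EARS2, as log10(TPM + 1), in 2-copy and 1-copy cells (points) with medians (lines), where the ranges of the copy states overlap for each gene.

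Whether a gene gave more RNA in cells that had already replicated it could be asked for the 3 members with a spliced level and neither state in over 80% of cells. CARS2 had 21.2, 72.6 and 216 TPM in the lowest, median and highest of 26 cells with 2 copies, and 10.7, 85.3 and 319 TPM in 28 cells with 1 copy. On the log2(TPM + 1) scale this came to -0.03 ± 0.26 (SE, 95% interval -0.54 to 0.48), with p = 0.869 by the two-sided Wilcoxon rank-sum test (adjusted p = 0.977). The interval for CARS2 did not reach a rise of 1 log2 unit, but it took no account of library set. TPM is scaled to a common total in each cell, and whether a second copy would give a rise of that size was not tested. AIMP1 had 2.09, 62.97 and 169 TPM in 17 cells with 2 copies and 19.3, 59.2 and 162 TPM in 38 cells with 1 copy, a log2 difference of -0.19 ± 0.33 (95% interval -0.88 to 0.50, Wilcoxon p = 0.736). The AIMP1 interval, likewise without library set, did not reach that rise either. EARS2 had 8.39, 47.8 and 103.9 TPM in 14 cells with 2 copies and 0, 41.5 and 143 TPM in 41 cells with 1 copy, a log2 difference of 0.78 ± 0.41 (95% interval -0.05 to 1.60, Wilcoxon p = 0.457, permutation p = 0.459), and its interval held both no change and that rise. EARS2 was at 0 in 3 of the 1-copy cells and in 0 of the 2-copy cells. So 0 of 3 members had p under 0.05, where 8.55% of 2455 genes tested did. None of those genes passed the adjusted threshold in the Wilcoxon test, 210 having an unadjusted p under 0.05. Within the later set CARS2 had medians of 52.5 and 66.5 TPM in 2-copy and 1-copy cells, and within the first set 111.9 and 93.2 TPM, so the direction was not the same in the sets. The direction of EARS2 also differed, with 37.4 and 42.5 TPM in the later set and 58.5 and 35.7 TPM in the first set. AIMP1 had 62.97 and 57.97 TPM in the later set and 67.8 and 67.4 TPM in the first set.

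Unspliced RNA was read as fractional counts of reads in the gene body less those in exons, with no scaling for gene length. 16 of 26 members were above 0 in over 50% of cells. Per kb of gene span, the mean count had a median of 0.636 over 13 cytosolic genes and 0.247 over 11 mitochondrial genes, against 0.368 over 10739 genes above 0 in over 50% of cells. The member groups were not filtered in this way. Of them, 10 of the 13 cytosolic and 5 of the 11 mitochondrial genes passed that filter, so the members and the 10739 genes are unlike sets. YARS2, the mitochondrial tyrosyl enzyme gene (chr12:32727490-32755897), stood far above the rest, at 38.5, 289 and 663 counts in the lowest, median and highest cell and a mean of 11.2 counts per kb. Its span overlaps the opposite-strand gene DNM1L by 18161 bases, and DNM1L had a median of 105.1 TPM. No source used here says whether reads were counted by strand, so reads of such neighbours cannot be told apart. QARS1 followed among the enzyme genes with a mean of 2.14 counts per kb. AARS2, HARS2, MARS2 and WARS1 were at 0 in all 56 cells, and LARS1 was above 0 in 1 cell, although WARS1 and LARS1 had spliced medians of 170.0 and 177 TPM. For MARS2 the exonic length equals the span (3027 bases). Its 0 is thus set by the subtraction of exon reads and is no measure of its unspliced RNA. In the other genes named, negative results of the subtraction were also set to 0. Their zeros therefore need not mean that unspliced RNA was absent, and the cause of these zeros was not tested. All these zeros enter the medians per kb given above.

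In unspliced RNA, edgeR's quasi-likelihood test called 0 of 16 members between the library sets (3 had an unadjusted p under 0.05), where 4.23% of 10739 genes were called. DESeq2 called 1 of 16 members, where it called 6.62% of those genes. That member was FARS2, with 10.2, 37.9 and 683 counts in the lowest, median and highest cell of the later set and 4.85, 96.7 and 2928 counts in the first set (edgeR log2 difference -1.96, adjusted p = 0.0895, and DESeq2 adjusted p = 0.00722). The copy-state test could be run for CARS2 alone, with 0.2, 82.3 and 644 counts in 2-copy cells and 0.2, 93.6 and 632 counts in 1-copy cells (Wilcoxon p = 0.337). Of 3159 genes 6.71% had p under 0.05. Spliced and unspliced levels of CARS2 varied together over 56 cells (rho 0.51), as did those of RARS2 (rho 0.54), while IARS1 (rho -0.19) showed no such relation.

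16 members have a span that overlaps another expressed gene on the opposite strand, which bears on their values since the use of strand in counting is not known here. The overlap was 14754 bases for GARS1 with GARS1-DT (median 47.9 TPM) and 982 bases for MARS1 with DDIT3 (median 32.2 TPM).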

How the data were processed

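The authors mapped the DNA reads to hg38 (the submitters' processing notes give BWA 0.7.17-r1188) and called each 40-kb bin 1-copy or 2-copy from its read number. A gene takes the average state of the bins it spans, made binary. The authors counted RNA reads per gene and deposited TPM, computed after reducing the libraries to a common number of reads. The deposited unspliced values are expected counts, made by the authors as gene-body reads less exon reads with negative values set to 0, and they are not scaled to a common total. That table is titled TPM, but it was read as counts because its low values fall on the same fractional steps in genes of medium and long span (0.2 the most frequent value below 1), which hold nearly all values above 0, and its totals differ between cells (425181 to 1353931). In 6 cells the total exceeds the common library size of the study's methods, so whether this table was reduced to it is not known. RNA came from the supernatant of the lysed cell, so nuclear RNA is partly lost. Which annotation lengths entered TPM was examined in the values, which behaved as levels per exon length.

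Cells were joined by the cell number of their DNA and RNA libraries. From the deposited values the following were computed. TPM was used as log10 or log2(TPM + 1), so that differences of low genes are understated. Genes entered a test with a value above 0 in over 50% of the 56 cells. Library sets were compared with limma 3.58.1 and the replication score was modelled with mgcv 1.9.3. Unspliced counts, rounded to whole numbers, were compared with edgeR 4.0.16 (TMM) and DESeq2 1.42.0, all in R 4.3.3. Copy states were compared in the 55 cells scored 40 to 70% by the study's two-sided Wilcoxon test (scipy 1.17.1) for genes called in 50% of cells or more and with no state above 80%, and EARS2 also by a permutation test with 100000 resamples. Adjusted p-values are Benjamini-Hochberg over all genes tested. Levels, ratios, timing and correlations are descriptions. The scripts were tested on simulated data. Members described with full values are those past a test, the 3 highest and 3 lowest of each class, the scaffold genes and the closest and farthest partner pairs, and other members were added after their values had been seen. Some genes are counted in the summaries but not reported here by name or in the figures. The members and gene lists were chosen with earlier results of these data known. The split into library sets also comes from such results.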

Additional observations from a re-analysis of the deposited data

How the results depend on the processing

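Of 67 alternative values for single genes, 56 kept their direction and call. Part of these could not change. Other filters left the copy-state difference and p of a gene as they were. The rho of TARS2 and KARS1 with the score does not depend on a pseudocount, a filter or a set term. The count is therefore no measure of how robust the calls are. The count of members called between the library sets in spliced RNA was 1, and became 0 with a pseudocount of 0.1 or without a filter on low values and 2 in the Wilcoxon test (MARS1 and SARS1), where 6.90%, 3.13% and 10.8% of all genes were called. The count in unspliced RNA was 0, and became 1 without a covariate or with DESeq2 (FARS2) and 3 without a filter on low counts (AIMP1, FARS2 and HARS1), where 6.81%, 6.62% and 10.7% of all genes were called. The difference of the CARS2 medians by copy state, -12.7 TPM, was 11.7 TPM in cells scored 45 to 65%, 6.42 TPM with the means of the library sets removed and 8.37 TPM as residuals on the score. For unspliced CARS2 it was -11.3 counts, and 5.08 counts as residuals on the score. For AIMP1 it was 3.79 TPM, and -0.933 TPM with TPM rescaled without mitochondrial-genome genes. None of these copy-state differences had p under 0.05 under any alternative, and the cause of the changes was not tested. The remaining counts of members called, by score and by copy state, were the same under each alternative. The ratio of cytosolic to mitochondrial level, 2.24 as a log2 value, ran from 1.97 in the first set to 2.54 as a median over members, and 21 or 22 of 26 members were early-S under each choice of cells.

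Over all genes, edgeR on unspliced counts by copy state gave p under 0.05 for 14.3% of genes, against 6.71% in the Wilcoxon test. Between the sets 454 genes were called in unspliced RNA by edgeR, 731 without the covariate, 711 by DESeq2 and 2040 without a filter. Along the score 7 genes were called by mgcv, 2 with the library set as a term, 4 with a linear term and 26 without a filter. No paired analysis was possible because the numbers that the labels repeat join the DNA and RNA libraries of 1 cell, and the cells of the groups compared share none. Depth limits the low mitochondrial genes most, which were at 0 in some cells, and 3 members gave copy-state comparisons with 14 to 41 cells a side.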
